A study of Gallus gallus with 20 samples.

Results

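The cytochrome P450 genes of hen liver were taken as every gene of the deposited table whose symbol starts with CYP followed by a digit, apart from the sterol demethylase gene CYP51A1. This gave 46 of 21749 genes, and all 46 were matched by symbol to the RefSeq gene table of the chicken build GRCg7b. Liver RNA of Guangxi Ma chicken, a Chinese local breed, had been sequenced from 20 mRNA-enriched libraries. They formed 5 groups of 4 libraries, namely hens of 32 weeks, hens of 50 weeks with high laying, hens of 50 weeks with low laying, hens of 72 weeks with high laying and hens of 72 weeks with low laying. The labels name no treatment or genetic change, and the sources used here do not say how laying was scored. The week 32 hens carry a laying label of high that the series design does not use, so they are called by age alone. Nothing in the labels says that the libraries of a group are separate hens. The p-values therefore weigh group differences only against the scatter of these samples, and that scatter may be technical.

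Cytochrome P450 enzymes are heme proteins that insert oxygen into their substrates, and most of those in liver sit in the endoplasmic reticulum and take their electrons from P450 reductase. In bile acid synthesis, CYP7A1 starts the classical route from cholesterol, while CYP27A1 and CYP7B1 act in the alternative route through oxysterols. Many enzymes of families 1, 2 and 3 oxidise drugs, plant compounds and other foreign substances as well as steroids, and many are induced through the nuclear receptor CAR or the aryl hydrocarbon receptor. The CYP4 and CYP2J enzymes act on fatty acids and eicosanoids, and the CYP26 enzymes break down retinoic acid. CYP2R1 starts the activation of vitamin D, and CYP24A1 inactivates vitamin D. By these roles and by family name the 46 genes were split into 3 bile acid, 2 oxysterol, 10 fatty acid, 4 retinoid, 2 vitamin D, 4 steroid hormone and 20 xenobiotic genes, with CYP20A1, which has no settled substrate, left on its own. The fatty acid class took all CYP4 and CYP2J genes and CYP2U1. The xenobiotic class took all CYP1 and CYP3 genes and the CYP2 genes of no other class. A place in these classes by name does not show what a gene acts on. CYP8B1 and CYP27B1 were not analysed here.

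The libraries held between 17155 and 18005 genes above 0 TPM (a transcript level scaled for transcript length and to a common total, so that genes can be set side by side). The listed genes alone summed to between 764047 and 852815 TPM, so the listed values do not share 1 total. Factors of median-ratio scaling ran from 0.8065 (week 50 low replicate 4) to 1.224 (week 50 high replicate 3), and levels are given without that scaling. The hepatocyte markers, 8 of 8 of them in the table, had a high sum in every library, between 48282 and 127155 TPM. HNF4A, 1 of the 8, ranged only from 3.53 to 21.2 TPM. The 3 kidney markers in the table summed to at most 0.845 TPM. The 3 libraries least like the rest by their median Spearman correlation with the other libraries were replicate 3 of week 50 low (0.923), replicate 2 of week 72 low (0.9234) and replicate 1 of week 50 high (0.9282). Week 50 low replicate 3 also had the highest sums of B or plasma cell markers (11078 TPM, against 57.0 to 6545 TPM in the others) and of erythroid markers (3798 TPM, against 155 to 1509 TPM). Erythroid markers summed to 168 to 371 TPM at week 32 and to 667 to 1509 TPM in the 8 libraries of week 72, without overlap. At week 50 their sums were 192 to 291 TPM in the high class. In replicates 1 to 4 of the low class they were 498, 155, 3798 and 635 TPM. Week 50 overlapped week 32. All week 50 libraries lay below those of week 72, apart from week 50 low replicate 3, which lay above them. The yolk precursor gene VTG2 stood at 725, 95.1 and 241 TPM in week 72 low replicates 1, 2 and 4 and at 4528 TPM or above in the other 17 libraries. In bulk tissue fewer cells of a type and less RNA per cell cannot be told apart. The part of these features in the values that follow was not tested.

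Transcripts of the xenobiotic class, which was set by family name, made up most of the P450 RNA of every library. The 46 genes summed to 7144 ± 1628 TPM (SD, n = 20 libraries), from 5002 TPM in week 72 high replicate 1 to 12378 TPM in week 72 high replicate 2. Xenobiotic genes held a mean of 77.7% of that sum (62.6% to 87.1%), fatty acid genes 13.6% (7.14% to 26.6%), bile acid genes 6.23% (3.41% to 9.14%) and oxysterol genes 1.97% (1.26% to 3.58%). The order of these 4 families by mean share did not change between the 5 groups. Steroid hormone genes held 0.0669% on average, vitamin D genes 0.0236% and retinoid genes 0.0167%.

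**Figure D1:**
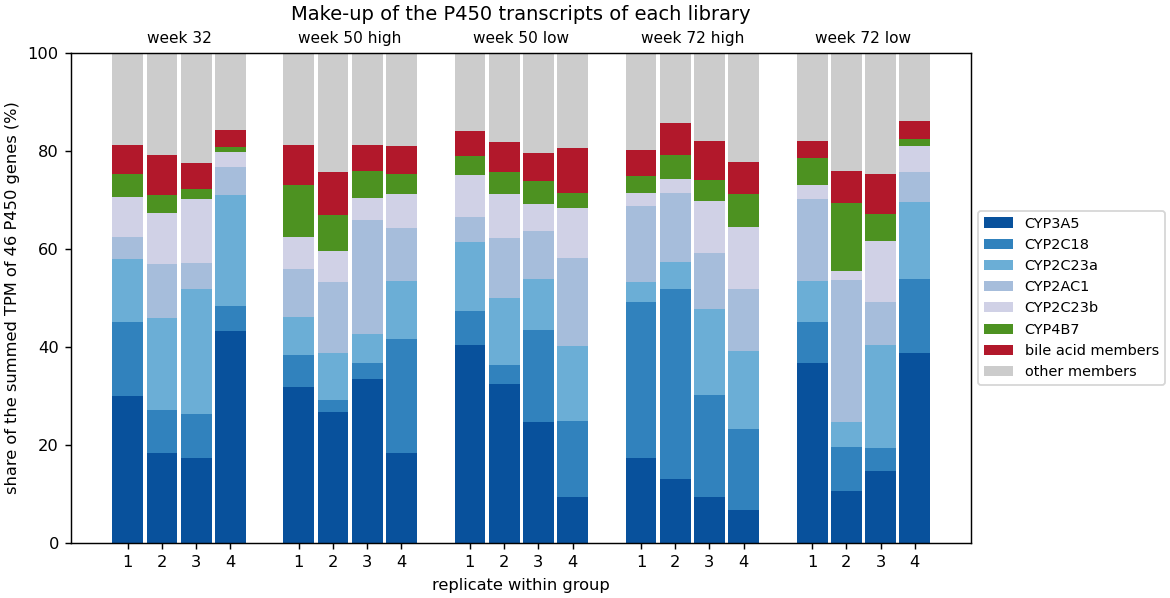
Share of the summed TPM of the 46 P450 genes (%, y axis) in each of the 20 libraries (bars, replicates 1 to 4 within each group on the x axis). The 6 genes with the highest mean TPM are coloured singly and held 66.9% to 82.4% of the sum, and the 3 bile acid genes are stacked above them in red.

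The summed level did not order the groups. It was 7102 ± 770 TPM (SD, n = 4) at week 32, 7092 ± 1601 TPM in week 50 high, 6760 ± 1201 TPM in week 50 low, 7624 ± 3255 TPM in week 72 high and 7140 ± 1038 TPM in week 72 low. The ranges of all 5 groups overlapped. Which gene led the sum did differ between libraries. CYP3A5 was the most abundant P450 in 10 of 20 libraries. CYP2C18 led in 5, which were the 4 week 72 high libraries and week 50 high replicate 4. CYP2C23a led in 3 libraries and CYP2AC1 in 2. The bars of the make-up plot show this change of the leading gene from library to library.

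Levels of the single genes differed widely. There were 11 genes with a mean of at least 100 TPM over the 20 libraries, 13 at 10 to 100 TPM, 5 at 1 to 10 TPM and 17 under 1 TPM. RNA of 35 genes was above 0 in all 20 libraries. A filter on low values, of at least 1 TPM in at least 4 libraries, left 31 of the 46 genes for testing, and the 15 others had means under 1 TPM. Retinoid genes were the family with none of its 4 members tested.

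**Figure D2:**
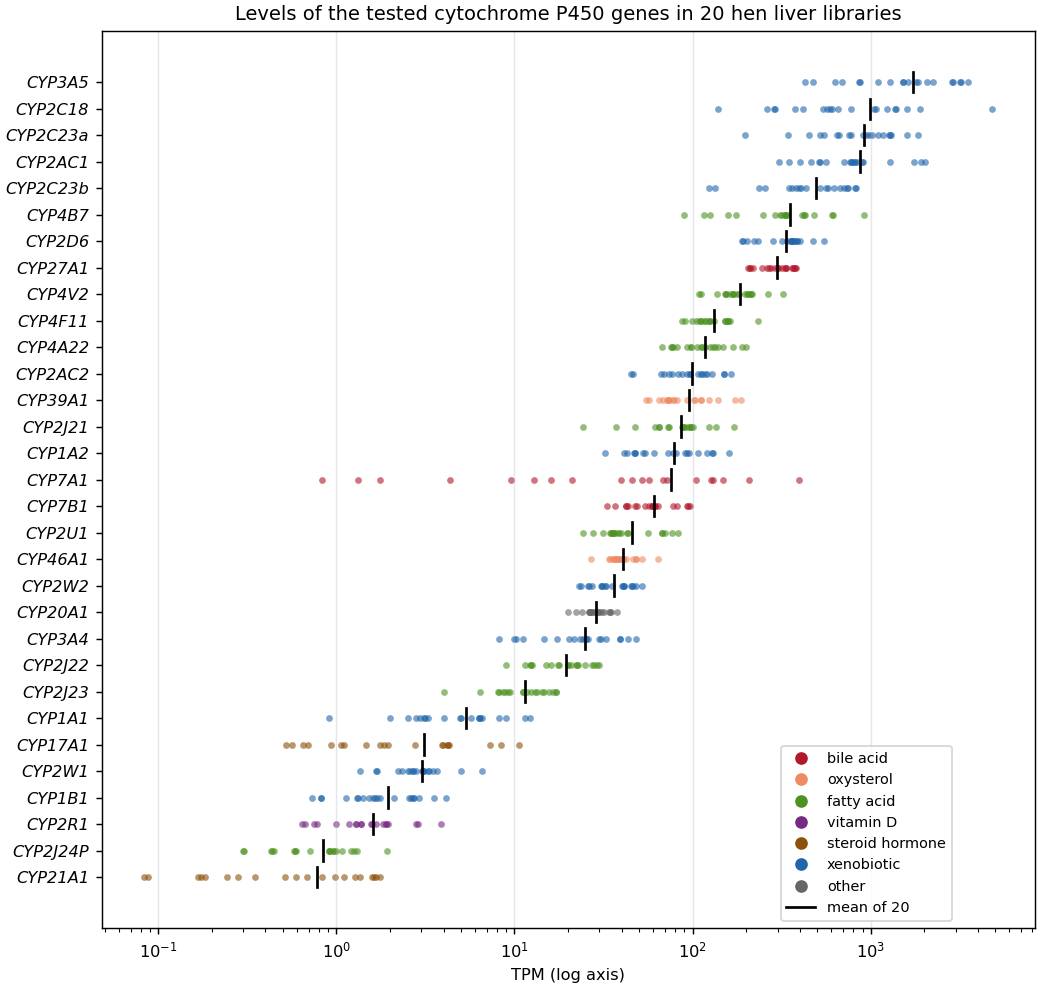
TPM (log x axis) of the 31 tested P450 genes (rows, by mean) in the 20 libraries (dots), coloured by family, with the mean as a black bar. CYP7A1 is spread from 0.834 to 397 TPM, while CYP27A1, also a bile acid gene, keeps between 204 and 380.1 TPM.

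The 3 bile acid genes differed in level and in how far they varied between libraries. CYP27A1 (chromosome 7, 22040598 to 22045420, GRCg7b), the mitochondrial sterol hydroxylase, had a mean of 298 TPM and was the eighth P450 by level. CYP7A1 (chromosome 2, 111729524 to 111737083), the rate-limiting enzyme of the classical route, had a mean of 75.8 TPM. CYP7B1 (chromosome 2, 114094632 to 114218217), the oxysterol hydroxylase of the alternative route, had a mean of 60.7 TPM. In the annotation CYP7A1 overlaps UBXN2B and CYP27A1 overlaps PRKAG3, so reads could be mixed there.

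CYP7A1 stood at 56.8, 207, 21 and 9.59 TPM in replicates 1 to 4 of week 32. In week 50 high it was at 52.0, 127, 148 and 12.9 TPM and in week 50 low at 45.9, 39.8, 1.76 and 67.9 TPM. In week 72 high it was at 4.35, 397, 130.2 and 71.9 TPM and in week 72 low at 0.834, 1.32, 104 and 16.0 TPM. The lowest library of each group lay at 12.9 TPM or less and the highest at 67.9 TPM or more, and all groups overlapped. Of the 3 libraries under 2 TPM, 2 were week 72 low replicates 1 and 2, which were also among the 3 libraries low in VTG2, and the third was week 50 low replicate 3, the library with the most B or plasma cell RNA. Week 72 low replicate 3, with VTG2 at 13572 TPM, held the highest CYP7A1 level of its group. Other libraries did not follow these features. Week 72 low replicate 4, with VTG2 at 241 TPM, had CYP7A1 at 16.0 TPM. That was above the 4.35 TPM of week 72 high replicate 1, where VTG2 was at 12212 TPM. Week 50 low replicate 1, with B or plasma cell markers at 6545 TPM, had CYP7A1 at 45.9 TPM. The part of these features in the CYP7A1 level was not tested.

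The difference of CYP7A1 between high and low laying had the same sign at both ages. On the scale of log2(TPM + 1), on which all differences here are given, it was 1.32 ± 1.40 (SE, 4 against 4 libraries) at week 50 and 2.85 ± 1.40 at week 72. Neither passed the limma test across all 12808 tested genes (Benjamini-Hochberg adjusted p = 1 and 0.929). The mean of both differences was 2.08 ± 0.99 (limma, adjusted p = 0.775), and the change of the laying difference between the ages was 1.53 ± 1.98 (limma, adjusted p = 1). The week 50 difference was 0.27 without week 50 low replicate 3 and 2.03 without week 50 high replicate 4, and the change between the ages ranged from 0.67 (without week 72 high replicate 2) to 2.74 (without week 72 high replicate 1). The mean over both ages moved to 1.56 without week 50 low replicate 3 and to 2.69 without week 72 high replicate 1, and with the 3 least typical libraries left out it was 1.26 ± 1.05 and the week 50 difference was 0.34. Against week 32, CYP7A1 differed by 0.58 in week 50 high, -0.74 in week 50 low, 0.72 in week 72 high and -2.13 in week 72 low, each ± 1.40. Between weeks 50 and 72 it differed by 0.13 in high-laying and by -1.39 in low-laying hens, each ± 1.40. None of these passed the test (limma, adjusted p from 0.804 to 1).

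The other bile acid genes varied less between libraries. CYP7B1 ranged from 47.6 to 77.2 TPM at week 32, from 36.9 to 94.3 TPM in week 50 high, from 54.0 to 96.4 TPM in week 50 low, from 42.1 to 82.1 TPM in week 72 high and from 33.1 to 61.7 TPM in week 72 low. CYP27A1 ranged from 209 to 303 TPM at week 32, from 209 to 380.1 TPM in week 50 high, from 277 to 364 TPM in week 50 low, from 219 to 363 TPM in week 72 high and from 204 to 378 TPM in week 72 low. Both overlapped between all groups. High minus low laying was -0.08 ± 0.31 at week 50 and 0.14 ± 0.31 at week 72 for CYP7B1. It was -0.02 ± 0.23 and 0.09 ± 0.23 for CYP27A1. Over both ages the mean was 0.03 ± 0.22 for CYP7B1 and 0.03 ± 0.16 for CYP27A1, both with the opposite sign once the libraries were rescaled by median ratios. In the 6 comparisons of age, CYP7B1 lay between -0.38 ± 0.31 (week 72 low minus week 50 low) and 0.06 ± 0.31, and CYP27A1 between -0.19 ± 0.23 (the same comparison) and 0.30 ± 0.23 (week 50 low minus week 32). None passed the limma test.

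**Figure D3:**
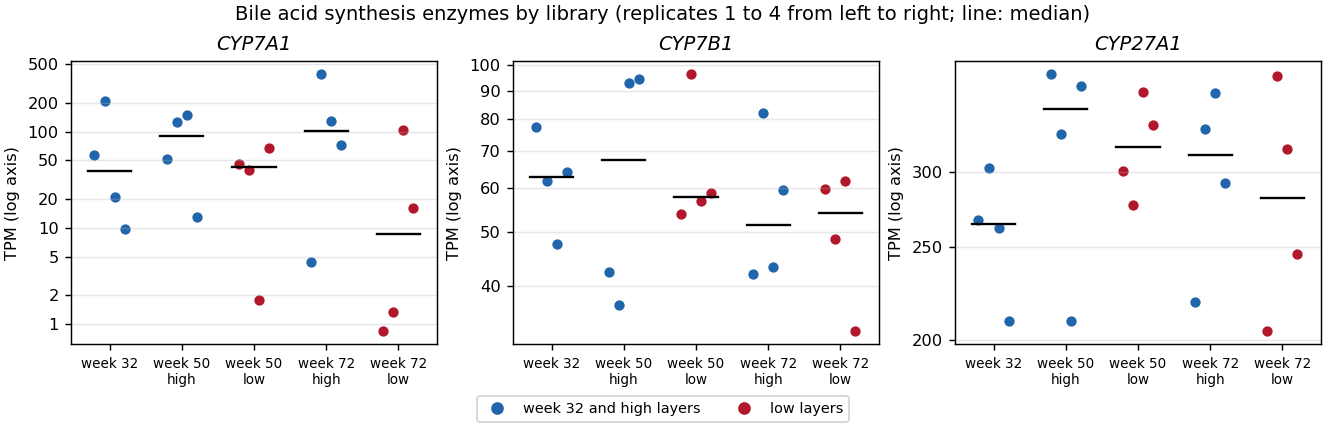
TPM (log y axis) of CYP7A1, CYP7B1 and CYP27A1 in each library, with replicates 1 to 4 from left to right in each of the 5 groups and a line at the group median. CYP7A1 covers 0.834 to 397 TPM, and its 3 libraries under 2 TPM are week 50 low replicate 3 and week 72 low replicates 1 and 2, while CYP7B1 keeps to 33.1 to 96.4 TPM and CYP27A1 to 204 to 380.1 TPM.

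The spread between libraries of the same group set CYP7A1 apart from its family. Its within-group SD on the log2 scale was 2.23, at the 99.9th percentile of all tested genes, against 0.47 for CYP7B1 (percentile 70.5) and 0.31 for CYP27A1 (percentile 35.5). Across the 20 libraries the 3 genes showed no correlation that passed a permutation test in a family of 3 pairs. CYP7A1 and CYP7B1 had Pearson's r = 0.196 (permutation p = 0.406, adjusted p = 0.609) and Spearman's rho = 0.189 (permutation p = 0.423, adjusted p = 0.573). CYP7A1 and CYP27A1 had r = 0.208 (permutation p = 0.379, adjusted p = 0.609) and rho = 0.134 (permutation p = 0.573, adjusted p = 0.573). CYP7B1 and CYP27A1 had r = -0.102 (permutation p = 0.666, adjusted p = 0.666) and rho = -0.144 (permutation p = 0.542, adjusted p = 0.573). Without the 2 libraries farthest from the median of the first gene r was 0.189, 0.211 and -0.197, and within groups it was 0.145, 0.206 and -0.16.

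The 2 oxysterol genes differed in how far they varied. CYP39A1 (chromosome 3, 109596756 to 109618359), which acts on an oxysterol made by CYP46A1, was at 92.8, 138, 186 and 111 TPM at week 32. It was at 57.1, 81.6, 72.8 and 123 TPM in week 50 high and at 65.0, 74.0, 77.5 and 72.1 TPM in week 50 low. No week 50 low library reached the lowest week 32 library, and week 50 high overlapped week 32. In week 72 high CYP39A1 ranged from 67.9 to 112 TPM, and in week 72 low from 54.5 to 173 TPM. Its difference from week 32 was -0.82 ± 0.30 in week 50 low (limma, adjusted p = 0.458) and -0.66 ± 0.30 in week 50 high (limma, adjusted p = 0.481). Its within-group SD of 0.45 was at percentile 67.9 of all tested genes. CYP46A1, the cholesterol hydroxylase best known from the mammalian brain, ranged from 26.8 to 63.8 TPM over all libraries. Its levels were 39.6 to 46.4 TPM in week 50 high and 26.8 to 38.5 TPM in week 50 low, which do not overlap, with a difference of 0.32 ± 0.19 (limma, adjusted p = 1). Its within-group SD of 0.25 was at percentile 14.3.

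Among the fatty acid genes the CYP4 members led. CYP4B7 had a mean of 352 TPM, CYP4V2, an omega hydroxylase of fatty acids in human, 184 TPM, CYP4F11 131 TPM and CYP4A22 117 TPM. Of the CYP2J genes, whose mammalian relatives make epoxides of arachidonic acid, CYP2J21 was at 86.0 TPM, CYP2J22 at 19.6 TPM, CYP2J23 at 11.5 TPM and the pseudogene CYP2J24P at 0.84 TPM. CYP2J19, which makes the red ketocarotenoid colours of birds, was above 0 in 1 library, at 0.0415 TPM. CYP2U1, a hydroxylase of long-chain fatty acids in human, had a mean of 46 TPM. The annotation has CYP2J22, CYP2J23 and CYP2J24P overlapping in a stretch of chromosome 8, so the split of reads among them is uncertain. CYP4A22 and CYP4B7 each overlap EFCAB14, so their reads could be mixed with those of that gene.

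CYP4B7 (chromosome 8, 21572944 to 21580018) was at 331, 248, 126 and 89.7 TPM at week 32 and at 610, 409.8, 483 and 330.1 TPM in week 50 high. The ranges meet only at the highest week 32 and the lowest week 50 high library. It was at 311, 316, 337 and 159 TPM in week 50 low, at 176, 615, 291 and 427 TPM in week 72 high and at 419.7, 919, 335 and 116 TPM in week 72 low. The difference of week 50 high from week 32 was 1.35 ± 0.52 (limma, adjusted p = 0.384). CYP2J21 was at 88.3, 124, 97.4 and 101 TPM in week 72 high, all above its 37.0 to 87.1 TPM at week 32, but the difference of 0.69 ± 0.38 did not pass even unadjusted. In week 72 low CYP2J21 was at 136, 171, 47.7 and 93.7 TPM, against 73.6, 61.5, 98.2 and 24.4 TPM in week 50 low. That difference was 0.80 ± 0.38 (limma, adjusted p = 0.584), and 0.40 without week 50 low replicate 4. CYP2U1 was at 31.6, 67.0, 83.2 and 67.6 TPM in week 50 high and at 37.5, 35.2, 34.6 and 56.4 TPM in week 50 low (0.54 ± 0.33, limma, adjusted p = 1, and 0.83 without week 50 high replicate 1). CYP2J22 differed between the high-laying groups of weeks 72 and 50 by 0.55 ± 0.31 (limma, adjusted p = 1), and by 0.32 without week 50 high replicate 1.

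The retinoid and vitamin D genes were barely present. CYP26A1 ranged from 0 to 1.03 TPM, CYP26B1 from 0.0897 to 1.53 TPM and CYP26C1 from 0.0371 to 0.803 TPM, and CYP27C1, a retinoid desaturase in human, from 0.074 to 0.8 TPM. Of the 4, CYP26A1 and CYP26B1 each reached 1 TPM in 2 libraries and the other 2 genes in none. CYP2R1, the main vitamin D hydroxylase of mammalian liver, had a mean of 1.61 TPM and ranged from 0.643 to 3.85 TPM, with both extremes at week 32. CYP24A1, which inactivates vitamin D, was above 0 in 3 libraries with a highest level of 0.135 TPM. At such levels the TPM table, which keeps no depth, gives no way to tell counting error from differences between hens. CYP2R1 did not pass in any comparison.

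The steroid hormone genes were low as well. CYP17A1, which makes androgen precursors, had a mean of 3.11 TPM and the widest spread after CYP7A1 and CYP2C18, with a within-group SD of 0.97. It was at 0.561, 8.41, 10.6 and 1.86 TPM at week 32 and ranged from 0.521 to 7.31 TPM in the other groups. CYP11A1, the cholesterol side-chain cleavage enzyme, had a mean of 0.497 TPM, and CYP19A1, the aromatase of the ovary, was above 0 in 2 libraries. The 4 steroidogenic markers summed to 2.04 to 13.6 TPM.

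CYP21A1 (chromosome 16, 2247316 to 2251247), a steroid hydroxylase known from the adrenal, had the smallest p of any P450 gene in the test over all 5 groups. It was at 0.183, 1.28, 0.242 and 0.681 TPM at week 32, at 1.36, 1.67, 1.58 and 0.35 TPM in week 50 high and at 1.63, 1.10, 0.827 and 1.76 TPM in week 50 low. It was at 0.173, 0.279, 0.979 and 0.514 TPM in week 72 high and at 0.0882, 0.167, 0.597 and 0.0836 TPM in week 72 low. No week 72 low library reached the lowest week 50 low library. The difference was -0.92 ± 0.26 (limma, adjusted p = 0.216), and between the high-laying groups it was -0.57 ± 0.26 (limma, adjusted p = 1). Week 50 low differed from week 32 by 0.58 ± 0.26 (limma, adjusted p = 0.531). These sizes depend on the pseudocount at such low levels: with 0.1 TPM in place of 1 they were -2.28, -1.21 and 1.28. CYP21A1 overlaps TNX in the annotation, so reads of both could be mixed, and its highest level was 1.76 TPM. It reached 1 TPM in 7 libraries, all of week 50 apart from week 32 replicate 2. CYP21A1 thus met the filter on low values only through the age at which it is high. Its rank and its differences between ages draw on the same values.

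The xenobiotic genes held the highest levels and much of the variation. RefSeq gives several of them older chicken names, with CYP3A5 as CYP3A37, CYP2C18 as CYP2C45, and CYP2C23a and CYP2C23b as CYP2H1 and CYP2H2, the phenobarbital-inducible pair of chicken liver. CYP3A5 (chromosome 14, 3929945 to 3939769) had a mean of 1729 TPM, CYP2C18 (chromosome 6, 17340688 to 17345965) 996 TPM and CYP2C23a (chromosome 6, 18351042 to 18358414) 916 TPM. CYP2AC1 (chromosome 3, 108574625 to 108580541) had a mean of 868 TPM, CYP2C23b 493 TPM and CYP2D6 335 TPM. Means of CYP2AC2, CYP1A2, CYP2W2 and CYP3A4 were 99.7, 79.1, 36.0 and 25.0 TPM. CYP1A1, CYP2W1 and CYP1B1 had means of 5.33, 3.01 and 1.95 TPM. The 7 others, CYP1C1, CYP2AC7 and the 5 CYP2AB genes, had means of 0.275 TPM or less.

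CYP2C18 was at 1044, 603, 570.4 and 419 TPM at week 32. In week 50 high it was at 375, 139, 291 and 1900.1 TPM and in week 50 low at 540.4, 260.1, 1364 and 778 TPM. In week 72 high it was at 1599.6, 4807, 1390.4 and 1064 TPM and in week 72 low at 653, 591, 287 and 1237 TPM. All 4 week 72 high libraries lay above the 4 week 32 libraries, and week 72 high overlapped both week 50 high and week 72 low. The difference of week 72 high was 1.59 ± 0.66 from week 72 low (limma, adjusted p = 0.922), 1.56 ± 0.66 from week 32 (limma, adjusted p = 0.908) and 2.15 ± 0.66 from week 50 high (limma, adjusted p = 0.881). The laying difference at week 72 exceeded that at week 50 by 2.18 ± 0.94 (limma, adjusted p = 1). Its within-group SD of 1.05 was at percentile 97.5.

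CYP3A5, of the main drug-oxidising family of liver, was at 2077, 1282, 1099.8 and 3537 TPM at week 32, at 1843, 1508, 2913 and 1512 TPM in week 50 high and at 3174, 2229, 1797 and 477 TPM in week 50 low. It was at 862, 1615, 628 and 427 TPM in week 72 high and at 2843, 694, 869 and 3197 TPM in week 72 low. The 4 week 72 high libraries had the lowest group mean, 883 ± 519 TPM (SD, n = 4), against 1901 to 1999 TPM in the other groups, with overlap. Week 72 high differed from week 50 high by -1.26 ± 0.58 (limma, adjusted p = 1) and from week 72 low by -0.97 ± 0.58 (limma, adjusted p = 0.999). The change of the laying difference between the ages was -1.22 ± 0.83 (limma, adjusted p = 1). The difference from week 72 low was -0.61 without week 72 low replicate 4, and the change between the ages -0.65 without week 50 low replicate 4. In the same 4 week 72 high libraries CYP2C18 was above CYP3A5, as the plot of the most abundant genes shows. It was also above CYP3A5 in week 50 high replicate 4 (1900.1 against 1512 TPM) and week 50 low replicate 4 (778 against 477 TPM).

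CYP2C23a was at 903, 1305, 1607 and 1847 TPM at week 32, and at 453, 546, 516 and 978 TPM in week 50 high. It was at 1097, 937, 755 and 776 TPM in week 50 low, at 197, 662, 1176 and 1015 TPM in week 72 high and at 648, 343, 1259 and 1290.2 TPM in week 72 low. The week 32 mean, 1416 ± 407 TPM (SD, n = 4), was the highest of the groups, but the lowest week 32 library lay below the highest library of each later group. Its differences from week 32 were -1.20 ± 0.47 in week 50 high (limma, adjusted p = 0.408) and -1.12 ± 0.47 in week 72 high (limma, adjusted p = 0.908). In week 72 low the difference was -0.82 ± 0.47 (limma, adjusted p = 0.762). High minus low laying was -0.57 ± 0.47 at week 50 (limma, adjusted p = 1), and the mean over both ages was -0.43 ± 0.34 (limma, adjusted p = 0.924). Without week 72 high replicate 1 that mean was -0.16 and the difference of week 72 high from week 32 was -0.56. Without week 72 low replicate 2 the difference of week 72 low from week 32 was -0.43.

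CYP2AC1 was at 307, 768, 347 and 459.6 TPM at week 32 and at 781, 1754, 771 and 809 TPM in week 72 high, with no overlap. It was at 558, 815, 2028 and 889 TPM in week 50 high, at 399.7, 835, 708 and 908 TPM in week 50 low and at 1291, 1911, 516 and 515 TPM in week 72 low. These 3 groups all overlapped week 32. How many of all tested genes lack overlap between week 72 high and week 32 was not counted. The differences from week 32 were 1.11 ± 0.46 in week 50 high (limma, adjusted p = 0.425), 0.63 ± 0.46 in week 50 low (limma, adjusted p = 0.754), 1.13 ± 0.46 in week 72 high (limma, adjusted p = 0.908) and 1.03 ± 0.46 in week 72 low (limma, adjusted p = 0.598, and 0.67 without week 72 low replicate 2). The 4 comparisons share the week 32 libraries.

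**Figure D4:**
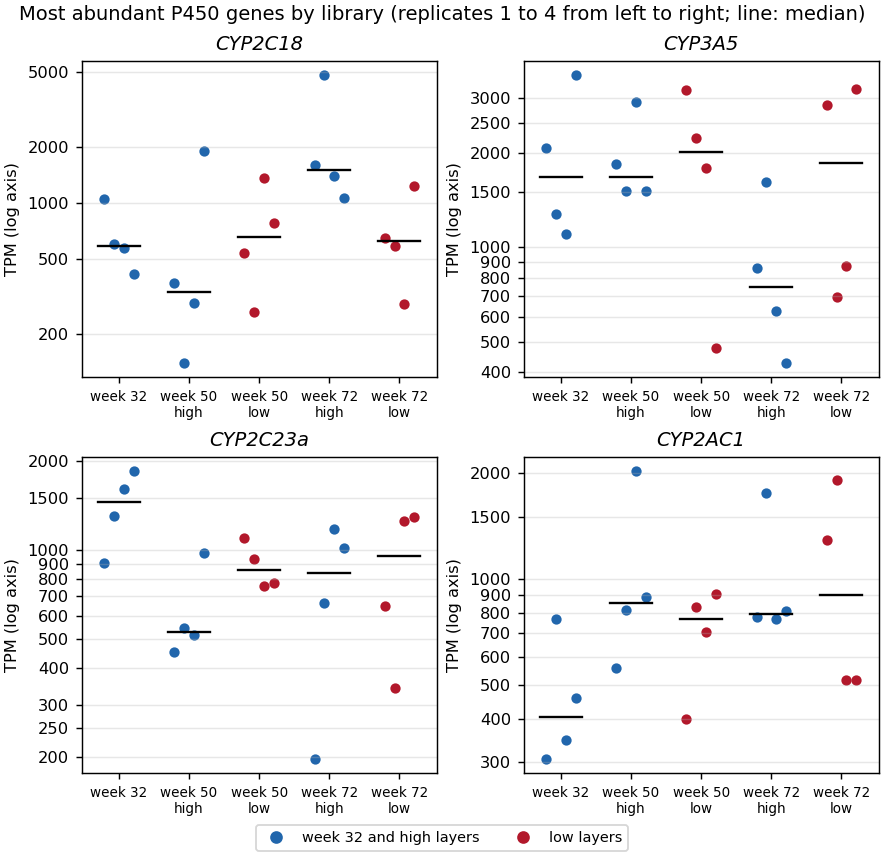
TPM (log y axis) of CYP2C18, CYP3A5, CYP2C23a and CYP2AC1 in each library, replicates 1 to 4 from left to right in each group, with a line at the group median. CYP2C18 sits at 1064 to 4807 TPM in week 72 high and at 419 to 1044 TPM at week 32, and CYP3A5 has its lowest group mean, 883 TPM, in week 72 high.

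The other xenobiotic genes had lower levels. CYP2D6 ranged from 190 to 545 TPM with group means between 321 and 372 TPM. CYP1A2, a target of the aryl hydrocarbon receptor, was at 80.2, 130.2, 93.1 and 159.9 TPM in week 72 low, against 53.9, 42.6, 91.0 and 47.7 TPM at week 32 and 52.7, 47.0, 121 and 41.4 TPM in week 50 low. The week 72 low level overlapped both, and differed by 0.98 ± 0.39 from week 32 (limma, adjusted p = 0.552) and by 0.90 ± 0.39 from week 50 low (limma, adjusted p = 0.528). Between high and low laying at week 72, CYP1A2 differed by -0.64 ± 0.39 (limma, adjusted p = 0.999), and by -0.27 without week 72 high replicate 1. CYP1A1, its neighbour, differed between week 72 high and week 32 by -1.04 ± 0.45 (limma, adjusted p = 0.908).

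CYP3A4, named CYP3A80 in older work, was at 20.2 to 43.2 TPM at week 32. It was at 10.2 to 32.7 TPM in week 50 high and 17.4 to 48.2 TPM in week 50 low. At week 72 it was at 10 to 25.2 TPM in the high and 8.20 to 25.8 TPM in the low class. These ranges overlap. Its differences were -0.95 ± 0.41 for week 72 high against week 32 (limma, adjusted p = 0.908), -0.95 ± 0.41 for week 72 low against week 32 (limma, adjusted p = 0.579) and -0.93 ± 0.41 for week 72 low against week 50 low (limma, adjusted p = 0.530). CYP2W2 was at 40.3 to 47.9 TPM in week 72 high and 23.1 to 45.5 TPM at week 32 (0.56 ± 0.23, limma, adjusted p = 0.908). It overlaps CYP2W1 and CYP2AC7 in the annotation, so its reads may be shared with them.

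Neighbouring P450 genes were compared with each other, a set of 12 pairs of tested genes within 50 kb that was chosen after the values had been seen. CYP2C23a and CYP2C23b, separated by 4037 bases on chromosome 6, had Pearson's r = 0.728 over 20 libraries (permutation p = 0.00036, adjusted over 12 pairs p = 0.00432) and Spearman's rho = 0.687 (permutation p = 0.00114, adjusted p = 0.0137). Without week 72 high replicate 1 and week 72 low replicate 2, where both genes are low, r was 0.439 (permutation p = 0.0687). That the relation passed therefore rests on those libraries, and leaving them out also narrows the range of CYP2C23a. Within groups, over all 20 libraries, r was 0.79. The ratio of CYP2C23a to CYP2C23b was 1.67 at the median library and ranged from 1.19 to 7.24. Near-identical paralogs can share reads, and the sources used here do not say how the counting split them. In the annotation CYP2C23a also overlaps LOC107053667, and CYP2C23b overlaps LOC124418053.

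The pair CYP1A1 and CYP1A2, 1965 bases apart on chromosome 10, had r = 0.516 (permutation p = 0.02, adjusted p = 0.12) and rho = 0.511 (permutation p = 0.0227, adjusted p = 0.0906), and r = 0.83 within groups. Without the 2 libraries farthest from the median of CYP1A1, r was 0.297 (permutation p = 0.231). The TPM of CYP1A2 was 6.45 to 38.8 times that of CYP1A1. The median ratio was 9.02 at week 32, 16.9 in week 50 high, 12.7 in week 50 low, 33.1 in week 72 high and 26.8 in week 72 low. At week 72 the ratio was 14.1 or more in all 8 libraries, and at week 32 it was 10.2 or less in all 4. This ratio was singled out after its values were seen and was not tested. Apart from CYP2C23a and CYP2C23b, none of the 12 pairs passed after adjustment.

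No P450 gene passed the limma test at an adjusted p under 0.05 in any of 11 comparisons. These were high against low laying at week 50 and at week 72, their mean, their change with age, the 4 later groups against week 32, week 72 against week 50 within each laying class, and any difference among the 5 groups. The counts below are of genes with an unadjusted p under 0.05, given beside the same share among all 12808 tested genes. A share near that background is no result about the P450 genes.

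For laying at week 50, 0 of 31 P450 genes passed with adjustment (0% of all genes), and without it 0 were higher (1.99% of all genes) and 0 lower (0.976%) in limma. The genes with the smallest p were CYP46A1 and CYP2U1, given above, and in the other direction CYP3A4 (-0.54 ± 0.41, limma, adjusted p = 1) and CYP2C23a. For laying at week 72, 0 of 31 passed with adjustment (0.00781% of all genes), and without it CYP2C18 alone was higher (3.65% of all genes) and 0 were lower (1.62%). For the mean of both ages, 0 of 31 passed with adjustment (0.00781%), and without it CYP7A1 alone was higher (4.68% of all genes) and 0 were lower (1.76%). CYP2W2 was at 0.28 ± 0.16 (limma, adjusted p = 0.844) and CYP1A1 at -0.41 ± 0.32 (limma, adjusted p = 0.923) in that mean. For the change of the laying difference with age, 0 passed with adjustment (0%), and without it CYP2C18 alone was higher (1.23% of all genes) and 0 were lower (1.15%). CYP2C23b stood at 0.76 ± 0.75 (limma, adjusted p = 1) and CYP1A2 at -0.92 ± 0.56 (limma, adjusted p = 1).

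**Figure D5:**
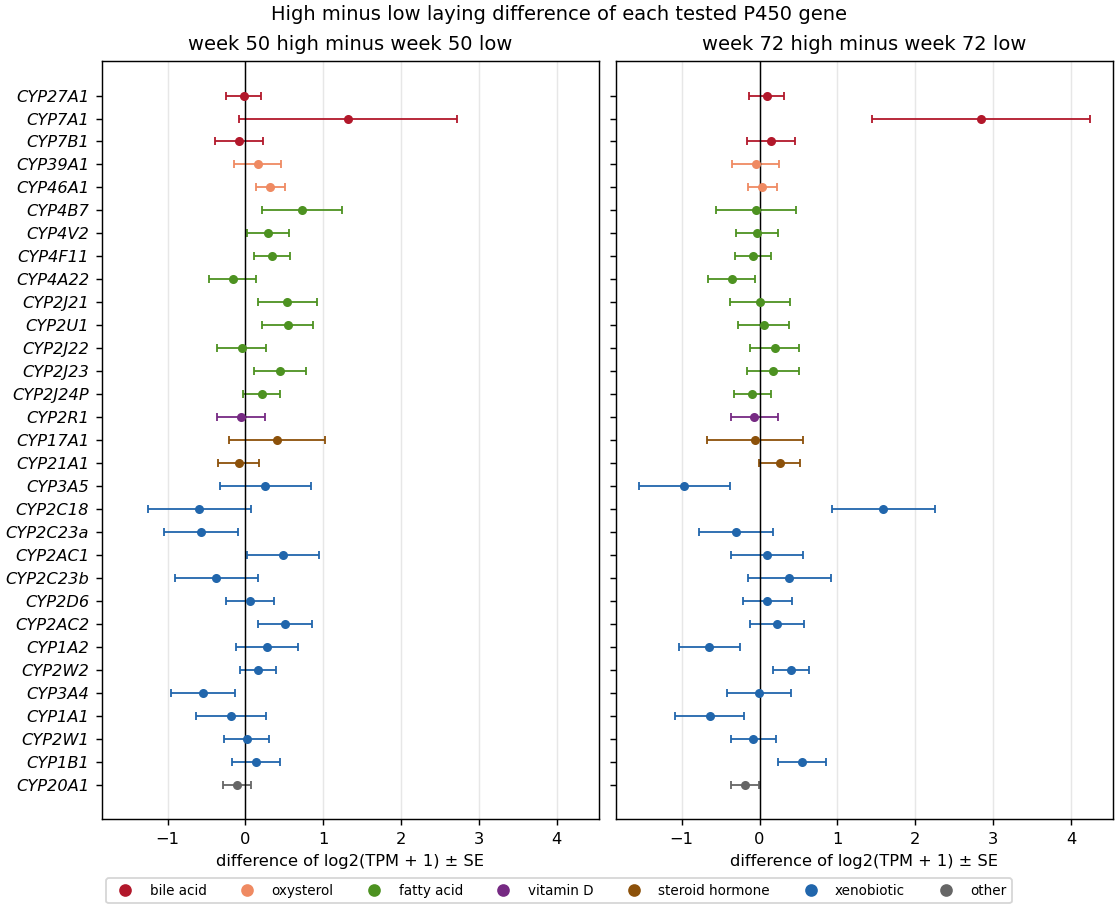
Difference of high minus low laying, in log2(TPM + 1) (x axis), for each of the 31 tested P450 genes (rows) at week 50 and at week 72, as the limma estimate (dot) ± 1 SE (bar), coloured by family. CYP7A1 (1.32 and 2.85) and CYP2C18 at week 72 (1.59) lie farthest to the right, and none of the 31 passed at an adjusted p under 0.05.

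In the laying comparisons the median of the 31 P450 differences was set beside that of all tested genes. It was 0.16 against 0.049 for all genes at week 50, with 19 of 31 above 0 against 59.8% of all genes. It was 0.01 against 0.034 at week 72, with 16 of 31 above 0 against 55.8%. Over both ages it was 0.08 against 0.043, with 22 of 31 above 0 against 59.3% of all genes. For the change of the laying difference with age it was -0.192 against -0.007, with 12 of 31 above 0 against 48.9%. At an unadjusted p under 0.05, 4 of 4 tested erythroid markers were lower with high laying at week 50 (against 0.976% of all genes). The same held over both ages (against 1.76%), but at week 72 the count was 0 of 4 (against 1.62%). Erythroid sums in week 50 low were 498, 155, 3798 and 635 TPM in replicates 1 to 4, against 192 to 291 TPM in week 50 high. At week 50, 3 of 4 B or plasma cell markers were lower as well. The sums of the B or plasma cell markers in week 50 low were 6545 and 11078 TPM in replicates 1 and 3. In replicates 2 and 4 they were 169.6 and 188 TPM, within the 61.2 to 451 TPM of week 50 high. None of these markers passed with adjustment in limma, and their part in the P450 differences was not tested.

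Against week 32, in week 50 high 0 of 31 passed with adjustment (0% of all genes). Without it 2 P450 genes, CYP4B7 and CYP2AC1, were higher (6.45%, against 8.49% of all genes) and 2, CYP2C23a and CYP39A1, were lower (6.45%, against 1.53%). In week 50 low 0 passed with adjustment (0%), and without it CYP21A1 was higher (3.23%, against 6.72%) and CYP39A1 lower (3.23%, against 2.19%). CYP21A1 met the filter on low values only through week 50 libraries, so its count here draws on the values that admitted it. In the same comparison CYP46A1 was at -0.25 ± 0.19 (limma, adjusted p = 0.763). In week 72 high 0 passed with adjustment (0.00781% of all genes). Without it 3 genes, CYP2AC1, CYP2C18 and CYP2W2, were higher (9.68%, against 2.92%) and 3, CYP1A1, CYP2C23a and CYP3A4, were lower (9.68%, against 2.3%). In week 72 low 0 passed with adjustment (0%), and without it CYP1A2 and CYP2AC1 were higher (6.45%, against 3.29%) and CYP3A4 lower (3.23%, against 4.4%).

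The median of the P450 differences from week 32 lay below that of all genes in all 4 later groups, which share the week 32 libraries. In week 50 high minus week 32 the median of all tested genes was 0.133 and that of the P450 genes 0.06, with 17 of 31 above 0 against 69.1% of all genes. With median-ratio scaling these medians were -0.01 and -0.097. In week 50 low minus week 32 the P450 median was -0.102 against 0.086, with 10 of 31 above 0 against 62.3%. In week 72 high minus week 32 it was 0.019 against 0.041, with 16 of 31 above 0 against 56.6%. In week 72 low minus week 32 it was -0.066 against 0.001, with 13 of 31 above 0 against 50.2%. Markers of blood and immune cells also lay apart in the comparisons with week 32. The T or NK cell markers summed to 71.6 to 95.3 TPM at week 32 and to 132 to 222 TPM in week 50 high, and the macrophage markers to 1736 to 2241 TPM and 2281 to 3887 TPM, neither with overlap. Of the 7 macrophage markers, however, 0 had an unadjusted p under 0.05 in limma in that comparison. Among them CD74 had the highest level, with a mean of 1473 TPM over the 20 libraries, and so weighs most in the sum. Against week 32 and without adjustment, 4 of 6 T or NK cell markers were higher in week 50 high (against 8.49% of all genes). So were 4 of 4 tested B or plasma cell markers in week 50 low (6.72%) and 4 of 4 erythroid markers in week 72 low (3.29%). With adjustment none passed in limma, and their part in the P450 differences was not tested.

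Between weeks 50 and 72 of high-laying hens, 0 of 31 passed with adjustment (0%). Without it CYP2C18 was higher at week 72 (3.23%, against 0.586% of all genes) and CYP21A1 and CYP3A5 were lower (6.45%, against 4.01%). Between weeks 50 and 72 of low-laying hens, 0 of 31 passed with adjustment (0.039% of all genes). Without it CYP1A2 and CYP2J21 were higher (6.45%, against 1.93%) and CYP21A1 and CYP3A4 lower (6.45%, against 6.6%). The P450 median was -0.048 against -0.096 for all genes in high-laying hens, and -0.03 against -0.091 in low-laying hens. Unadjusted, 3 of 4 erythroid markers were higher (against 0.586%) and 3 of 6 T or NK cell markers lower (against 4.01%) in high-laying hens. In low-laying hens 4 of 4 B or plasma cell markers were lower (against 6.6%). The part of these markers in the P450 differences was not tested. In the test of any difference among the 5 groups 0 passed with adjustment (0.00781%), and CYP21A1 (limma, adjusted p = 0.378) and CYP2C18 (limma, adjusted p = 0.549) passed without it (6.45%, against 8.88% of all genes). The next were CYP3A4 (limma, adjusted p = 0.588), CYP2AC1 (limma, adjusted p = 0.645) and CYP39A1 (limma, adjusted p = 0.669). CYP21A1 had met the filter on low values only through its week 50 libraries, so its place in these counts draws on the same values.

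The within-group spread of the P450 genes bears on these tests. The median within-group SD of the 31 genes was 0.47, against 0.36 for all tested genes. CYP7A1, CYP2C18, CYP17A1, CYP3A5, CYP2C23b, CYP4B7, CYP2C23a and CYP2AC1 were all at percentile 90.8 or above, and these include all 6 of the most abundant P450 genes. CYP20A1 was at the other end, with an SD of 0.23 (percentile 9.17) and levels of 19.9 to 37.6 TPM.

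The partners of the P450 enzymes were followed as well. Of the electron donors and other redox partners, 6 of 7 listed genes were in the table, and 0 of 6 tested passed in any comparison (limma, adjusted p), with 0 to 3 at an unadjusted p under 0.05. Over both ages 3 of 6 were higher with high laying at an unadjusted p under 0.05, namely PGRMC1 (0.39 ± 0.15, limma, adjusted p = 0.675), FDX1 (0.31 ± 0.14, limma, adjusted p = 0.753) and CYB5B (0.23 ± 0.09, limma, adjusted p = 0.682), against 4.68% of all genes. POR, the reductase that feeds the microsomal enzymes, had a mean of 209 TPM and ranged from 67.8 to 367 TPM. In the test of any difference the smallest p of this list were those of CYB5B (limma, adjusted p = 0.567) and PGRMC1 (limma, adjusted p = 0.638).

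Heme synthesis and breakdown, which supplies and clears the P450 cofactor, had 11 of 11 genes tested and 0 that passed in limma, with 0 to 2 per comparison at an unadjusted p under 0.05. The count was 2 higher for laying at week 72 (against 3.65% of all genes) and 2 higher in week 50 high minus week 32 (against 8.49%). The smallest p over the 5 groups were those of PPOX (limma, adjusted p = 0.578) and UROD (limma, adjusted p = 0.604). ALAS1, the rate-limiting step of heme synthesis in liver, ranged from 17.0 to 300.4 TPM. Of 18 listed nuclear receptors and other regulators, 14 were tested and 0 passed (0 or 1 unadjusted), and HNF4A (limma, adjusted p = 0.691) and NR1I3, the gene of CAR (limma, adjusted p = 0.785), had the smallest p. The unadjusted 1 was lower in week 72 low minus week 32, against 4.4% of all genes. Of 11 genes of retinoid and vitamin D handling, 8 were tested and 0 passed in limma (0 or 1 unadjusted), with LRAT (limma, adjusted p = 0.702) and RBP4 (limma, adjusted p = 0.730) at the smallest p. Unadjusted, 1 was higher with high laying over both ages (against 4.68% of all genes) and 1 lower in week 72 high minus week 32 (against 2.3%).

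Of 14 listed genes of the later steps of bile acid synthesis and of bile acid transport, 11 were tested and 0 passed in limma (0 to 3 unadjusted). The count was 3 in week 72 low minus week 32, all higher (against 3.29% of all genes). It was also 3 in week 72 high minus week 32, with 2 higher (against 2.92%) and 1 lower (against 2.3%). BAAT, which joins bile acids to an amino acid, was at 29.4 to 31.5 TPM at week 32 and at 34.2 TPM or more in all 16 later libraries, and had the smallest p of the list over the 5 groups (limma, adjusted p = 0.449). AKR1D1, the reductase that shapes the bile acid ring, had a mean of 51.1 ± 15.3 TPM (SD, n = 4) at week 32 and of 96.8 ± 54.6, 97.4 ± 32.2, 176 ± 118 and 207 ± 152 TPM in the order week 50 high, week 50 low, and the high and low classes of week 72 (limma, adjusted p = 0.564 over the 5 groups). Unlike CYP7A1, whose mean was highest in week 72 high and lowest in week 72 low, neither gene had its lowest group mean in week 72 low.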

How the data were processed

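Liver RNA of 20 libraries was measured by RNA sequencing after RNAiso Plus extraction and mRNA enrichment, per the labels' protocols. The authors deposited TPM values per gene, and the submitters' processing notes name the genome build GRCg7b. The sources used here do not name the aligner, the counter or the annotation. TPM keeps no depth, so no count model, interval or detection limit was used. Groups and replicate numbers came from the titles, and 0 columns of values were left unused.

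Differences were estimated with limma 3.58.1 (R 4.3.3) on log2(TPM + 1), with 1 mean per group, all 20 libraries in 1 model (15 residual degrees of freedom), a mean-variance trend, genes of at least 1 TPM in at least 4 libraries, two-sided tests and Benjamini-Hochberg adjustment over 12808 genes. The test was checked on simulated data with large known differences only. That check cannot show how often smaller differences, or those of genes at low levels, would be missed. Correlations used 100000 permutations (scipy 1.17.1) on log2(TPM + 1). Alternatives were pseudocount 0.1, no filter, a filter of 5 TPM, median-ratio scaling, only the groups compared, the replicate number as a block, no trend and leaving out each library. Leaving out 3 libraries together was added after the data were seen.

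The P450 genes and the other gene lists were chosen with earlier results of these data known. Differences were named for the bile acid genes in every comparison and otherwise for genes that passed or, failing that, the 2 with the smallest p in each direction; CYP1A1 and CYP2J21 in week 72 high, the ratios, and the levels of POR and ALAS1 and laying differences of P450 redox partners were named after their values were seen. Gene positions and older names are from the RefSeq table of GRCg7b. CYP8B1 was not analysed here, so 3 bile acid pairs were correlated.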

Additional observations from a re-analysis of the deposited data

Results flagged for a closer look

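In 155 groups of 4 libraries (31 tested P450 genes in 5 groups), 17 single libraries stood apart from the other 3 of their group by a gap that, as a share of the group's range, was above Dixon's critical value. Chance gives about 1 in 20 groups where values are normally distributed. The ratio was taken on TPM and not on the log2 scale, so a skew of TPM can raise the number of high flags. The genes also share libraries, so the 17 flags are not independent and cannot be set against that rate. Week 50 low held 7 of the 17. In its replicate 3, the library with the most B or plasma cell and erythroid RNA, CYP1A2 was at 121 TPM (others 41.4 to 52.7 TPM), CYP4A22 at 200 TPM (112 to 118 TPM) and CYP2W2 at 41.4 TPM (30.7 to 32.1 TPM). In its replicate 4, CYP2D6 was at 201 TPM (356 to 387 TPM), CYP4B7 at 159 TPM (311 to 337 TPM) and CYP2U1 at 56.4 TPM (34.6 to 37.5 TPM), and in its replicate 2 CYP7B1 was at 96.4 TPM (54.0 to 58.9 TPM).

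In week 72 high replicate 2, CYP2C18 was at 4807 TPM (others 1064 to 1599.6 TPM), CYP2AC1 at 1754 TPM (771 to 809 TPM) and CYP20A1 at 30.2 TPM (26.1 to 26.6 TPM). In week 72 low replicate 3, the library of its group with VTG2 at the level of the other groups, CYP7A1 was at 104 TPM (0.834 to 16.0 TPM) and CYP21A1 at 0.597 TPM (0.0836 to 0.167 TPM). In week 50 high, replicate 4 had CYP2C18 at 1900.1 TPM (139 to 375 TPM) and CYP2C23b at 572 TPM (361 to 397 TPM), and replicate 1 had CYP2D6 at 232 TPM (363 to 377 TPM). At week 32, CYP2W2 was at 45.5 TPM in replicate 3 (23.1 to 26.2 TPM) and CYP46A1 at 51.8 TPM in replicate 1 (36.4 to 37.4 TPM).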

How the results depend on the processing

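In all 11 comparisons 0 P450 genes passed in limma under every setting run, including leaving out each of the 20 libraries, while the count at an unadjusted p under 0.05 moved, for example from 6 to between 2 and 8 in week 72 high minus week 32. Without the 3 libraries least like the rest, that count went from 0 to 3 for laying at week 50, from 1 to 0 at week 72 and from 1 to 3 over both ages. Nothing in the labels says that replicate numbers pair the libraries. Of 40 same-number pairs, 14 had correlated deviations above 0.1 (r from -0.27 to 0.28). Pairs of unlike number were not compared, so these values cannot show whether the numbers pair libraries. With the replicate block 0 P450 genes passed in every comparison and CYP7A1 over both ages stayed at 2.08. Among the differences of named genes, those that turned sign were of bile acid genes whose difference was smaller than its SE, and the cause was not tested.

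With median-ratio scaling the sign turned for the mean over both ages of CYP7B1 (-0.028) and CYP27A1 (-0.023), for CYP7B1 in week 50 low minus week 32 (-0.035) and for CYP27A1 in week 72 high minus week 50 high (0.050). Without the 3 libraries least like the rest it turned for CYP7B1 at week 50 between laying classes (0.026) and in week 50 high minus week 32 (0.15), for CYP7A1 in week 50 low minus week 32 (0.32), and for CYP27A1 in week 72 low minus week 32 (-0.037) and week 72 high minus week 50 high (0.013).

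Leaving out single libraries, the difference between laying classes ranged at week 50 from -0.29 to 0.15 for CYP7B1 and from -0.11 to 0.17 for CYP27A1, and at week 72 from -0.049 to 0.27 and from -0.059 to 0.24. Their means over both ages ranged from -0.074 to 0.15 and from -0.040 to 0.13, and their changes with age from -0.0078 to 0.44 and from -0.083 to 0.26. CYP7A1 ranged from -0.066 to 1.37 in week 50 high, from -1.39 to 0.32 in week 50 low and from -0.14 to 1.93 in week 72 high, each minus week 32, and from -0.72 to 1.35 in week 72 high minus week 50 high. CYP7B1 ranged from -0.23 to 0.22 in week 50 high and from -0.13 to 0.17 in week 50 low, each minus week 32, and from -0.39 to 0.053 in week 72 high minus week 50 high. CYP27A1 ranged from -0.037 to 0.26 in week 72 low minus week 32 and from -0.27 to 0.066 in week 72 high minus week 50 high. Of the other genes, leaving out single libraries gave -0.82 to -0.21 for CYP3A4 between laying classes at week 50, -0.61 to -0.26 for CYP1A1 over both ages, 0.31 to 1.29 for CYP2C23b and -1.26 to -0.55 for CYP1A2 in the change with age, and -0.32 to -0.13 for CYP46A1 in week 50 low minus week 32. The depth behind TPM is unknown, which limits the genes near or under 1 TPM most.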
